A study of Arabidopsis thaliana with 12 samples.

Results

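The comparison described here is the interaction of HIN1 genotype and water potential: the transcript response of the HIN1 line to low water potential less the response of the wild type (WT). It was fitted over all 12 libraries of the series, 3 in each of 4 groups, so its members are 12 of 12 libraries. The groups were HIN1 stress, HIN1 control, WT stress and WT control. HIN1 stands for a stable Arabidopsis thaliana line carrying the HIN1 gene behind the 35S promoter, and WT for accession Col-0. Stress was a water potential of -0.7 MPa on agar infused with polyethylene glycol, and control was -0.25 MPa on fresh plates. All groups were whole seedlings grown on sugar-free medium under continuous light for 7 days, moved to 1 of the 2 media and collected 96 h later. Each group held 3 separate experiments.

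The 35S promoter is active in most plant tissues, the line is 1 transformed line, and reads of the transgene and of the resident gene are counted together. The WT libraries also served a study of another mutant, per the design text of the series. In bulk seedlings, fewer cells of a type and less RNA per cell cannot be told apart.

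HIN1 (AT3G11290, chr3:3535561-3537904, minus strand, TAIR10.1) is given in RefSeq as having a DNA-binding domain of the Myb/SANT-like kind, and its name comes from an interaction with HAI1, a clade A protein phosphatase that restrains abscisic acid (ABA) signalling. Plants that meet low water potential build up ABA, make proline and adjust growth. Many genes of innate immunity, such as receptor kinases, peptide precursors, glutathione transferases and enzymes of antimicrobial metabolism, also shift when water is short. An interaction gene is one whose stress response differed between genotypes, whatever its level in either.

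Libraries held 58 to 68.56 M gene reads (M, 1e6 reads), and log2 CPM profiles of libraries of 1 group correlated at 0.984 to 0.991. CPM is the usual count scaled to a common library size, here after TMM normalization. Sums over marker lists are instead scaled to the total gene reads of each library, without TMM. Transcripts of light harvesting, root, root hair and guard cell marker genes were present in every library, as the label of whole seedlings implies. Summed over their lists, 8 seed maturation markers reached 0.852 to 5.05 CPM and 4 pollen markers 0.0491 to 0.355 CPM in any library.

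WT control libraries 1 and 2 stood apart. Their 13 root hair markers summed to 24.9 and 39.2 CPM, against 85.2 CPM in WT control library 3 and 76.5 to 120 CPM in the other 9 libraries. The sums of the 14 root markers gave no such split. They were 241 and 210 CPM in these 2 libraries, 292 CPM in WT control library 3 and 220.5 to 315 CPM in the other 9. The mean log2 CPM of the same root markers was nevertheless lowest of all in WT control libraries 1 and 2, at 2.417 and 2.374. That mean was 3.015 in WT control library 3 and 2.605 to 3.115 in the other 9. WT control library 1 also stood apart in genes that are known to be induced quickly by many stimuli. WRKY40, a defence transcription factor of this kind, had 133 CPM there, against 2.38 to 24.7 CPM in the other 11 libraries. Library 3 of each group differed from libraries 1 and 2 in its share of chloroplast reads, at 0.408% to 0.75% against 0.141% to 0.263%, and of reads at several sites, at 1.84% to 2.6% against 1.33% to 1.58%. Within libraries 1 and 2 of all groups 8 genes were called, 3 of them among the 36 described below, with 2 libraries a group. Of these 8, the response was higher in the HIN1 line in 4 and lower in 4. Every interaction value below uses the WT control mean, so results are also given without these libraries where they matter, and the part of these root and quickly induced genes in any result was not tested.

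The targeted gene checked the labels. HIN1 had 316, 344 and 390 CPM in HIN1 stress and 250, 297 and 260 CPM in HIN1 control, against 23.58, 24.5 and 22.8 CPM in WT stress and 24.5, 22.7 and 21.6 CPM in WT control. The 2 genotypes did not overlap in either medium. Under stress the HIN1 transcript rose in the HIN1 line by 0.38 on the log2 scale (adjusted p = 0.00732) and its WT response was 0.04. The difference of the responses, 0.34 ± 0.12 (approximate standard error), was not called, with an adjusted p of 0.496. Every adjusted p given here comes from the quasi-likelihood F test of edgeR, corrected by the Benjamini-Hochberg method over all genes tested.

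With all 12 libraries, genes whose stress response differed between the genotypes were few and nearly all leaned one way. Of 22924 genes tested, 36 passed an adjusted p of 0.05, which is 0.157% of them. In 35 genes the response was higher in the HIN1 line, 0.153% of genes tested, and in 1 gene, the beta-amylase gene BAM5, it was lower, 0.00436%. That lean was not kept in every fit. Without WT control library 3, 102 genes were higher and 136 lower. Without library 3 of all groups, 4 were higher and 4 lower. At an unadjusted p under 0.05, 1471 genes were higher (6.42%) and 631 lower (2.75%). The median interaction over all genes tested was 0.02, and that over the 35 genes was 2.1, with GLR2.9, whose WT stress libraries held no read, at its fitted value or at its bound. Of the 36 genes, 32 differed by at least 1 on the log2 scale, against 1141 of the 22924 genes tested. The call itself favours large differences. Libraries were taken as unpaired. A fit with the replicate number as a block kept 21 of the 36 calls. CYP71A12, WAKL4, PROPEP2 and GSTF7 were among those it lost.

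The 35 genes shared a shape. All 3 HIN1 stress libraries lay above all 3 WT stress libraries in each of the 35, against 10.1% of genes tested. HIN1 stress was the group of highest mean in 25 of 35, against 20.1% of genes tested. WT stress was the group of lowest mean in 30 of 35, against 25.3% of genes tested. In WT, 25 of the 35 fell under stress (16.7% of genes tested fell), 1 rose (14.9% rose) and 9 were not called. In the HIN1 line 20 of the 35 rose (14.7% of genes tested rose), 8 fell (12.5% fell) and 7 were not called. The HIN1 line was above WT in all 35 under stress, against 3.23% of genes tested, and in 17 of 35 at control, against 2.19%. These simple contrasts use the same libraries as the interaction, so the counts describe how the interaction arose and do not test it again.

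**Figure D1:**
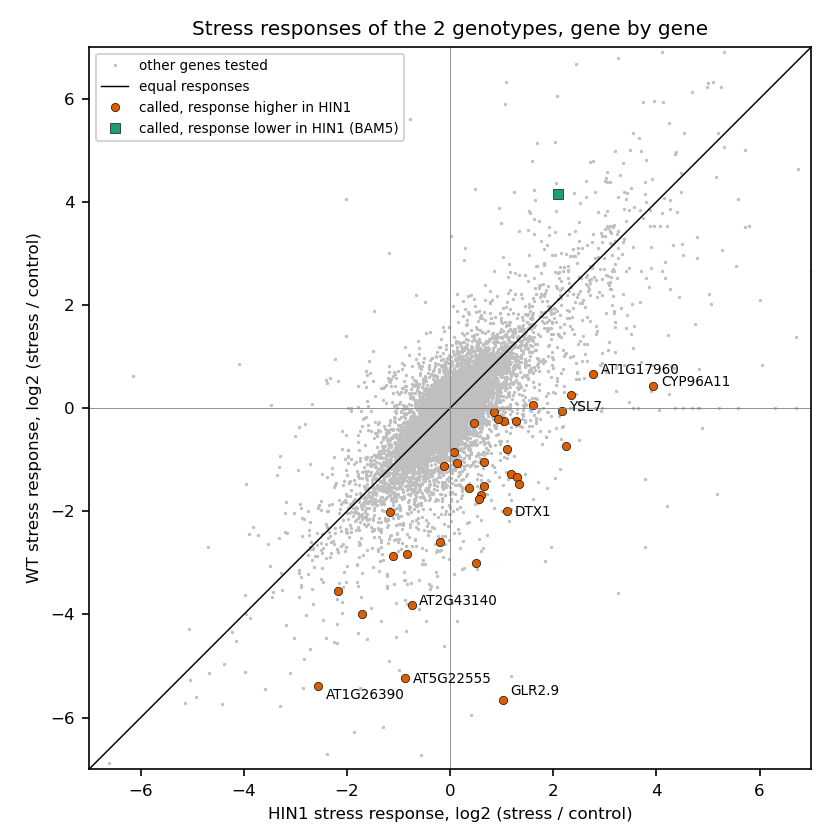
Each point is a gene, with the log2 stress response of the HIN1 line on the x axis and that of WT on the y axis, and the line marks equal responses. The 35 orange genes lie below the line, most of them at negative WT values, and BAM5 (green) lies above it; 55 genes outside -7 to 7 on an axis are not drawn.

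By direction of the 2 responses, the 35 genes fell into 5 sets. In 10 genes transcripts rose in the HIN1 line and fell in WT: AT1G13480, WAKL4, AT1G26420, AT1G29020, DTX1, AT2G17710, GLR2.9, AT3G45660, DMT2 and AT5G65980. In 9 they rose in the HIN1 line and were not called in WT: AT1G48700, AT1G61440, YSL7, CYP71B23, PHT3;2, AMY1, CYP96A11, WOX12 and AT5G38940. In 8 they fell in both, with the larger fall in WT: AT1G26390, AT2G43140, AT3G16530, AT4G19820, CRK12, SULTR3;5, HDK and AT5G22555. In 7 they fell in WT and were not called in the HIN1 line: GSTF7, AT1G26410, AT1G52200, PXMT1, CYP71A12, AT2G39210 and PROPEP2. AT1G17960 rose in both, more in the HIN1 line.

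**Figure D2:**
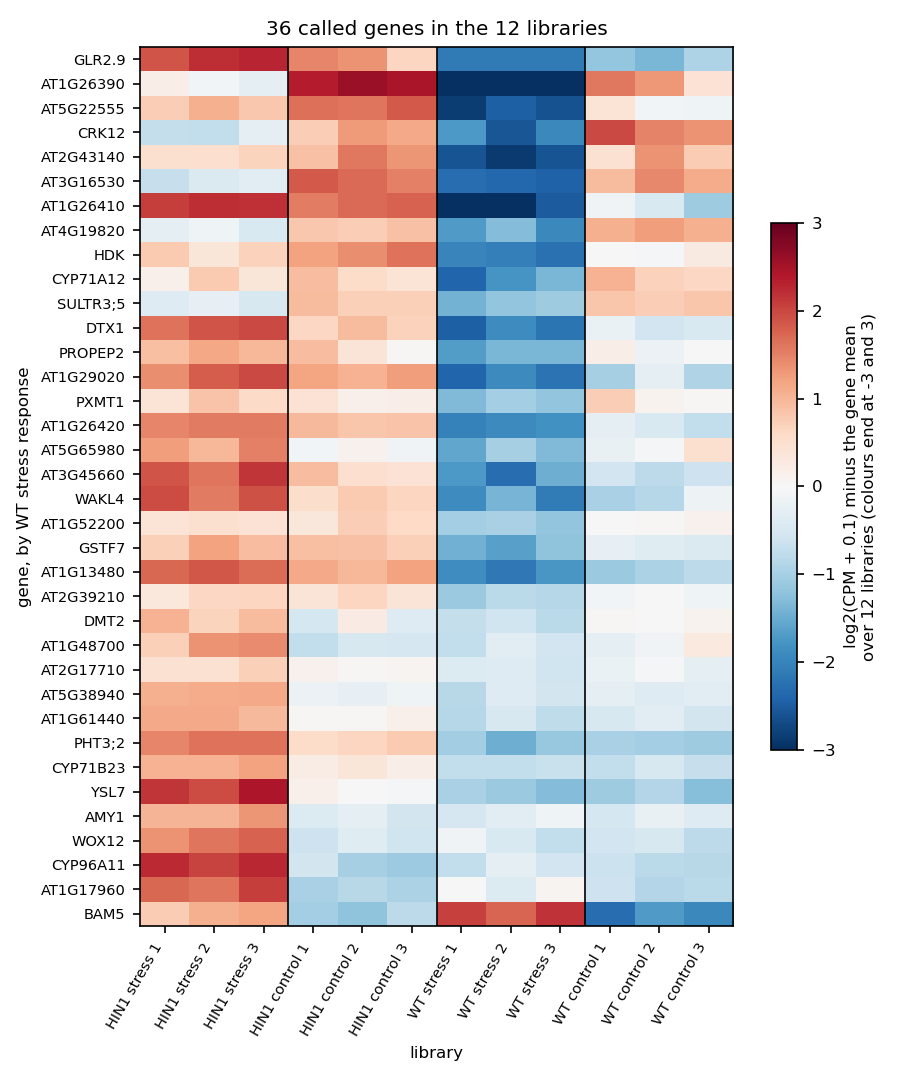
Levels of the 36 called genes (rows, ordered by their WT stress response) in the 12 libraries (columns), as log2(CPM + 0.1) minus the mean of the gene. WT stress has the lowest group mean in 30 rows (25.3% of genes tested) and HIN1 stress the highest in 25 (20.1% of genes tested). BAM5, the bottom row, is reddest in WT stress.

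A run of 3 neighbouring genes on chromosome 1 encodes berberine bridge enzyme-like proteins, FAD-linked oxidases of which several act in plant defence. The genes are AT1G26390 (chr1:9130013-9131779), AT1G26410 (chr1:9138604-9140439) and AT1G26420 (chr1:9141519-9143336), all on the minus strand, and no other gene of the span was tested. They formed the only run of 3 called genes along a chromosome with at most 2 uncalled tested genes between neighbours. The 250 bases upstream of each annotated start are shown with those of BAM5, whose response went the other way. Capitals mark TTGAC, the core of the W-box read by WRKY factors, on either strand (GTCAA), and none of the 4 holds ACGTG, the core of the ABA-responsive element, on either strand (CACGT).
AT1G26390, chr1:9131780-9132029, minus strand: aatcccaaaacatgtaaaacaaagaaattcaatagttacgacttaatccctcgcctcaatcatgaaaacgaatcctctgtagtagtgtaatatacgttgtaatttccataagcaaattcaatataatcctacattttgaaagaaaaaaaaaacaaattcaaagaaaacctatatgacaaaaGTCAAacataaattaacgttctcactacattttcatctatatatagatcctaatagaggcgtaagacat
AT1G26410, chr1:9140440-9140689, minus strand: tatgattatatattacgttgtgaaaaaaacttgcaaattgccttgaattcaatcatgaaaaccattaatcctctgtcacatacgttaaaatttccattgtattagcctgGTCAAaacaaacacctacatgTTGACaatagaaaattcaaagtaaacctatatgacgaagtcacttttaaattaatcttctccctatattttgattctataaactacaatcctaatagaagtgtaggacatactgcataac
AT1G26420, chr1:9143337-9143586, minus strand: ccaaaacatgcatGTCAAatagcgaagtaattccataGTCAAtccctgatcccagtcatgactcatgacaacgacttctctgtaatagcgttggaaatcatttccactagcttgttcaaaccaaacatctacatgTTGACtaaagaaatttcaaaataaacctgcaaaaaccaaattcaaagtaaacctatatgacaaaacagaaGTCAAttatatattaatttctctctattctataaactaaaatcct
BAM5, chr4:8669527-8669776, minus strand: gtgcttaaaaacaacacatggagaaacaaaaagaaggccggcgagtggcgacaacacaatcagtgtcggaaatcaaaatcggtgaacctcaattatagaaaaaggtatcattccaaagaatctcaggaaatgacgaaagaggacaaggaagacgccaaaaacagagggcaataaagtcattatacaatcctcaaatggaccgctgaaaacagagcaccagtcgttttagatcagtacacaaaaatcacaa

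The sequences are from RefSeq TAIR10.1. TTGAC occurred 1 time upstream of AT1G26390, 2 times upstream of AT1G26410, 4 times upstream of AT1G26420 and 0 times upstream of BAM5. Over all 35 genes with a higher response in the HIN1 line, 23 (65.7%) held TTGAC on either strand in the 250 bases, and 45.2% of the 22682 tested genes with such a sequence did. ACGTG occurred in 10 of the 35 (28.6%) and in 24.1% of tested genes. A match of this kind describes the letters and is not a binding site.

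AT1G26420 had the lowest p of all genes. It had 11.2, 12.1 and 12.1 CPM in HIN1 stress and 7.94, 7.28 and 7.30 CPM in HIN1 control, against 0.909, 1.00 and 1.07 CPM in WT stress and 3.27, 2.89 and 2.38 CPM in WT control. No 2 groups overlapped. The transcript rose by 0.65 on the log2 scale in the HIN1 line and fell by 1.52 in WT, an interaction of 2.17 ± 0.17 (adjusted p = 0.000687) that was called without any single library. AT1G26410 had 15.7, 17.3 and 16.9 CPM in HIN1 stress and 10.7, 12.02 and 12.7 CPM in HIN1 control, against 0.114, 0.307 and 0.568 CPM in WT stress and 3.38, 2.63 and 1.69 CPM in WT control. Its groups did not overlap either, and its interaction was 3.5 ± 0.46 (adjusted p = 0.0119, and 0.0546 without HIN1 control library 3). AT1G26390 went down in both genotypes: it had 3.09, 2.52 and 2.14 CPM in HIN1 stress and 14.0, 16.6 and 15.1 CPM in HIN1 control, against 0.199, 0.0971 and 0.138 CPM in WT stress and 8.24, 6.70 and 3.65 CPM in WT control. The fall was 2.56 in the HIN1 line and 5.38 in WT, while all 3 neighbours fell in WT. The AT1G26390 interaction of 2.83 ± 0.45 (adjusted p = 0.0374) was called in 1 of the 12 fits that left out 1 library, with a highest adjusted p of 0.124 without WT stress library 3.

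Other enzymes of defence and detoxification followed. CYP71A12, a cytochrome P450 of indole metabolism on the route to camalexin and related antimicrobials, had 29.1, 45.1 and 33.6 CPM in HIN1 stress and 49.8, 38.6 and 34.9 CPM in HIN1 control, against 4.93, 7.62 and 10.2 CPM in WT stress and 53.9, 42.3 and 40.7 CPM in WT control. Only WT stress was low, and the other 3 groups overlapped. The transcript fell by 2.6 on the log2 scale in WT and its response in the HIN1 line was -0.19 (adjusted p = 0.581), an interaction of 2.4 ± 0.34 (adjusted p = 0.0177). That call was lost without HIN1 control library 2 (0.0644), HIN1 control library 3 (0.0726) or WT stress library 2 (0.0529). GSTF7, a phi-class glutathione transferase, had 171, 240 and 197 CPM in HIN1 stress and 194, 190 and 171 CPM in HIN1 control, against 38.1, 33.6 and 45.1 CPM in WT stress and 87.4, 81.1 and 76.4 CPM in WT control. It was above WT in the HIN1 line in both media, and it fell by 1.07 under stress in WT, with a response of 0.13 in the HIN1 line (adjusted p = 0.478). The GSTF7 interaction was 1.2 ± 0.18 (adjusted p = 0.0239), called in 4 of the 12 fits without 1 library, with a highest adjusted p of 0.0983 without HIN1 control library 3.

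CYP71B23 and CYP96A11, further cytochromes P450, rose in the HIN1 line and were not called in WT. CYP71B23 had 35.7, 35.9 and 40.2 CPM in HIN1 stress and 19.98, 22.2 and 19.7 CPM in HIN1 control, against 10.2, 10.3 and 10.8 CPM in WT stress and 10.3, 12.2 and 10.6 CPM in WT control. The WT groups overlapped and the HIN1 groups did not, and the interaction of 0.93 ± 0.11 (adjusted p = 0.00788) was called without any single library. CYP96A11 was almost silent outside 1 group: it held 100, 90 and 101 reads in HIN1 stress and 9, 5 and 4 in HIN1 control, against 8, 12 and 8 in WT stress and 8, 6 and 6 in WT control. Its interaction was 3.51 ± 0.49 (adjusted p = 0.0177), called in 5 of the 12 fits without 1 library. PXMT1, a methyltransferase, had a mean of 8.51 CPM in HIN1 stress and 6.59 CPM in HIN1 control, against 2.37 CPM in WT stress and 6.90 CPM in WT control (interaction 1.92 ± 0.27, adjusted p = 0.0175, called in 8 of the 12). AT1G48700, a 2-oxoglutarate and Fe(II)-dependent oxygenase, stayed under 1 CPM in every library (interaction 2.99 ± 0.48, adjusted p = 0.0403, called in 2 of the 12).

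**Figure D3:**
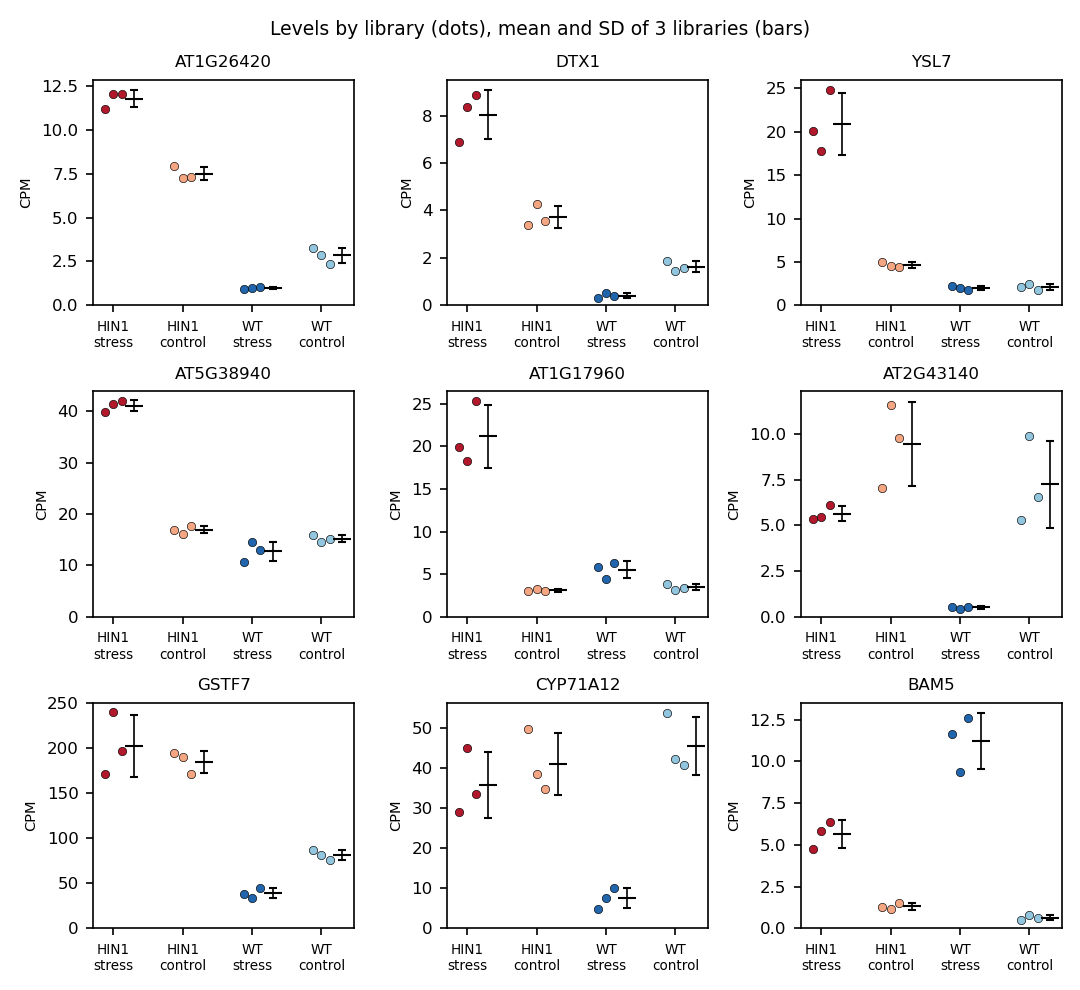
CPM of 9 called genes by library, with HIN1 stress, HIN1 control, WT stress and WT control from left to right, dots for libraries and bars for mean and SD of 3 libraries. HIN1 stress lies above WT stress in each panel except that of BAM5, where WT stress, at 9.39 to 12.6 CPM, is the highest group.

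Receptor-like and signalling proteins made up the next set, also grouped after their values were seen. WAKL4, a wall-associated kinase-like protein, had 8.49, 6.38 and 8.17 CPM in HIN1 stress and 3.08, 3.71 and 3.32 CPM in HIN1 control, against 0.497, 0.745 and 0.413 CPM in WT stress and 1.03, 1.12 and 1.87 CPM in WT control. All 4 groups were separate, with a rise of 1.19 in the HIN1 line, a fall of 1.28 in WT and an interaction of 2.46 ± 0.35 (adjusted p = 0.0194, called in 6 of the 12 fits without 1 library, highest 0.0925 without WT stress library 1). PROPEP2, the precursor of a danger peptide that activates immune receptors, had 1.95, 2.36 and 2.08 CPM in HIN1 stress and 1.99, 1.32 and 1.02 CPM in HIN1 control, against 0.241, 0.324 and 0.327 CPM in WT stress and 1.15, 0.878 and 0.986 CPM in WT control. PROPEP2 fell by 1.76 in WT and had a response of 0.56 in the HIN1 line (adjusted p = 0.101). Its interaction was 2.31 ± 0.36 (adjusted p = 0.0326, called in 2 of the 12, highest 0.116 without WT stress library 1).

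GLR2.9 encodes a glutamate receptor-like cation channel. It held 97, 129 and 128 reads in HIN1 stress and 70, 64 and 35 in HIN1 control, against 0, 0 and 0 in WT stress and 6, 4 and 8 in WT control. With a floor of 3 counts over the WT stress group, 0.0158 CPM, HIN1 stress was at least 116-fold higher than WT stress and WT stress at least 6.24-fold lower than WT control, and the interaction at that floor was 3.66 on the log2 scale. The call (adjusted p = 0.0450) was kept in 1 of the 12 fits without 1 library, with a highest value of 0.120 without HIN1 stress library 2. CRK12, a cysteine-rich receptor-like kinase, fell in both genotypes: it had 1.02, 1.00 and 1.42 CPM in HIN1 stress and 2.94, 4.38 and 3.93 CPM in HIN1 control, against 0.454, 0.210 and 0.378 CPM in WT stress and 7.10, 5.06 and 4.58 CPM in WT control. The fall was 1.71 in the HIN1 line and 3.99 in WT (interaction 2.28 ± 0.38, adjusted p = 0.0487, called in 1 of the 12). AT1G61440, an S-locus lectin protein kinase, rose by 1.04 in the HIN1 line, and its WT response was -0.25 (interaction 1.29 ± 0.20, adjusted p = 0.0362, called in 2 of the 12). AT1G29020, an EF-hand calcium-binding protein, had a mean of 7.31 CPM in HIN1 stress and 4.81 CPM in HIN1 control, against 0.397 CPM in WT stress and 1.27 CPM in WT control (interaction 2.28 ± 0.33, adjusted p = 0.0194, called in 5 of the 12).

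Carriers are described next, grouped after their values were seen. DTX1, a MATE efflux carrier that exports toxic compounds, had 6.89, 8.35 and 8.87 CPM in HIN1 stress and 3.38, 4.27 and 3.54 CPM in HIN1 control, against 0.312, 0.518 and 0.396 CPM in WT stress and 1.88, 1.43 and 1.56 CPM in WT control. No 2 groups overlapped, and a rise of 1.11 in the HIN1 line stood against a fall of 1.99 in WT, an interaction of 3.1 ± 0.27 (adjusted p = 0.000687) that was called without any single library. YSL7, of the Yellow Stripe-like family of metal-chelate and peptide carriers, had 20.1, 17.7 and 24.8 CPM in HIN1 stress and 5.01, 4.47 and 4.38 CPM in HIN1 control, against 2.24, 2.02 and 1.75 CPM in WT stress and 2.08, 2.41 and 1.79 CPM in WT control. The WT groups overlapped, the rise in the HIN1 line was 2.17, and the interaction of 2.23 ± 0.21 (adjusted p = 0.00155) was again called without any single library.

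AT5G65980, of the auxin efflux carrier family, had 5.40, 4.54 and 6.49 CPM in HIN1 stress and 2.07, 2.42 and 2.05 CPM in HIN1 control, against 0.681, 1.07 and 0.826 CPM in WT stress and 1.89, 2.12 and 3.12 CPM in WT control. The control groups overlapped and the stress groups did not, and the interaction of 2.8 ± 0.32 (adjusted p = 0.00485) was called without any single library. AT3G45660, a major facilitator, had 5.82, 4.78 and 6.94 CPM in HIN1 stress and 2.96, 2.17 and 2.06 CPM in HIN1 control, against 0.383, 0.227 and 0.482 CPM in WT stress and 0.979, 0.827 and 0.937 CPM in WT control. Its interaction was 2.61 ± 0.34 (adjusted p = 0.0119), lost without HIN1 control library 3 (0.0561) or WT stress library 1 (0.0509). The 3 other carriers had smaller differences. SULTR3;5, a sulfate transporter, fell by 1.17 in the HIN1 line and by 2.02 in WT, an interaction of 0.86 ± 0.14 (adjusted p = 0.0374, called in 3 of the 12 fits without 1 library). PHT3;2, a mitochondrial phosphate carrier, rose by 0.92 in the HIN1 line and had a WT response of -0.21, an interaction of 1.13 ± 0.19 (adjusted p = 0.0468, called in 1 of the 12). AT2G39210, a further major facilitator, fell by 0.85 in WT and had a HIN1 response of 0.07, an interaction of 0.92 ± 0.15 (adjusted p = 0.0454, called in 3 of the 12).

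A further set, put together from annotated families after the values were seen, included AT5G38940, a cupin. It had 39.8, 41.5 and 42.0 CPM in HIN1 stress and 16.9, 16.2 and 17.58 CPM in HIN1 control, against 10.7, 14.5 and 12.9 CPM in WT stress and 15.9, 14.6 and 15.1 CPM in WT control. The rise of 1.28 in the HIN1 line set HIN1 stress apart from the other 9 libraries, and the interaction of 1.54 ± 0.13 (adjusted p = 0.000687) was called without any single library. AT3G16530, a legume lectin, had 33.9, 40.7 and 43.4 CPM in HIN1 stress and 199, 178 and 156 CPM in HIN1 control, against 11.2, 10.8 and 10.2 CPM in WT stress and 106, 149 and 119 CPM in WT control. It fell in both, by 2.18 in the HIN1 line and 3.54 in WT (interaction 1.36 ± 0.18, adjusted p = 0.0143, called in 8 of the 12 fits without 1 library). AT4G19820, with a chitinase insertion domain, likewise fell by 1.12 in the HIN1 line and 2.86 in WT (interaction 1.75 ± 0.22, adjusted p = 0.0113, and 0.0509 without WT stress library 1). AT1G52200, of the PLAC8 family, was at 41.0, 42.7 and 41.6 CPM in HIN1 stress and 38.8, 51.3 and 46.0 CPM in HIN1 control, against 15.02, 15.4 and 13.4 CPM in WT stress and 30.9, 31.1 and 33.4 CPM in WT control. It fell by 1.12 in WT and had a response of -0.12 in the HIN1 line (adjusted p = 0.358), and its interaction was 1.00 ± 0.13 (adjusted p = 0.0113, and 0.0546 without HIN1 control library 3).

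Regulators and other products completed the set. AT2G43140, a basic helix-loop-helix transcription factor, had 5.35, 5.45 and 6.09 CPM in HIN1 stress and 7.04, 11.6 and 9.75 CPM in HIN1 control, against 0.554, 0.437 and 0.550 CPM in WT stress and 5.30, 9.88 and 6.54 CPM in WT control. The control groups overlapped, and the interaction of 3.06 ± 0.34 (adjusted p = 0.00485) was called without any single library. WOX12, a homeobox factor of new root formation, had 1.79, 2.15 and 2.41 CPM in HIN1 stress and 0.379, 0.478 and 0.386 CPM in HIN1 control, against 0.582, 0.437 and 0.344 CPM in WT stress and 0.395, 0.430 and 0.329 CPM in WT control. HIN1 stress alone was high (interaction 2.1 ± 0.34, adjusted p = 0.0435, called in 1 of the 12 fits without 1 library). DMT2, a cytosine DNA methyltransferase, rose by 1.11 in the HIN1 line and fell by 0.79 in WT (interaction 1.90 ± 0.28, adjusted p = 0.0239, called in 4 of the 12).

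AT1G17960, annotated as a threonyl-tRNA synthetase, had 19.9, 18.3 and 25.3 CPM in HIN1 stress and 2.97, 3.296 and 3.04 CPM in HIN1 control, against 5.89, 4.42 and 6.28 CPM in WT stress and 3.85, 3.20 and 3.37 CPM in WT control. It rose in both, by 2.77 in the HIN1 line and 0.67 in WT, and the interaction of 2.1 ± 0.21 (adjusted p = 0.00268) was called without any single library. AT1G13480, of the DUF1262 family of unknown function, had 10.7, 11.98 and 10.5 CPM in HIN1 stress and 7.11, 6.45 and 7.54 CPM in HIN1 control, against 0.809, 0.647 and 0.877 CPM in WT stress and 1.42, 1.60 and 1.82 CPM in WT control. All 4 groups were separate (interaction 1.71 ± 0.19, adjusted p = 0.00485), and this call too was kept without any single library. AT5G22555, an uncharacterized protein, held 238 reads in HIN1 stress and 417 in HIN1 control, against 3 in WT stress and 122 in WT control, summed over 3 libraries. Its ratio of HIN1 stress to WT stress was 78.2 (95% exact counting interval 26.4 to 382), and its call (adjusted p = 0.0119) was lost without WT stress library 3 (0.0502). AMY1, an alpha-amylase, rose by 1.61 in the HIN1 line with a WT response of 0.05 (interaction 1.56 ± 0.24, adjusted p = 0.0326, called in 1 of the 12). AT5G20470, listed as HDK and annotated as a myosin, fell by 0.83 in the HIN1 line and 2.84 in WT (interaction 2.00 ± 0.31, adjusted p = 0.0326, called in 2 of the 12), and AT2G17710 had the smallest called difference, 0.76 ± 0.12 (adjusted p = 0.0403, called in 2 of the 12).

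BAM5 was the exception in sign. This beta-amylase, which releases maltose from starch and related glucans, had 4.75, 5.86 and 6.36 CPM in HIN1 stress and 1.296, 1.13 and 1.54 CPM in HIN1 control, against 11.7, 9.39 and 12.6 CPM in WT stress and 0.489, 0.775 and 0.641 CPM in WT control. The HIN1 line was above WT at control and below it under stress, with no overlap in either medium. BAM5 rose by 2.1 in the HIN1 line and by 4.14 in WT, an interaction of -2.05 ± 0.27 (adjusted p = 0.0119, and 0.0509 without WT stress library 1).

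Which libraries entered the fit decided how many genes passed. Without 1 library at a time the count ran from 12 to 35 for 11 of the libraries: 35 without HIN1 stress library 1, 27 without 2 and 18 without 3; 28 without HIN1 control library 1, 20 without 2 and 12 without 3; 13 without WT stress library 1, 23 without 2 and 19 without 3; and 24 without WT control library 1 and 23 without 2. Without WT control library 3 it was 238, of which 102 were higher and 136 lower in the HIN1 line, and all 36 genes stayed called. In 135 of these 136 genes WT control library 3 was the highest of the 3 WT control libraries. Its median log2 excess over the mean of libraries 1 and 2 was 0.88. Calling genes without that library favours such genes, and the cause was not tested. Without WT control libraries 1 and 2 together, a choice made after seeing the data, 10 genes were called, 9 of them among the 36, and all 36 kept their sign. The 9 genes called without any single library were AT1G26420, AT5G38940, DTX1, YSL7, AT1G17960, AT1G13480, AT2G43140, AT5G65980 and CYP71B23.

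**Figure D4:**
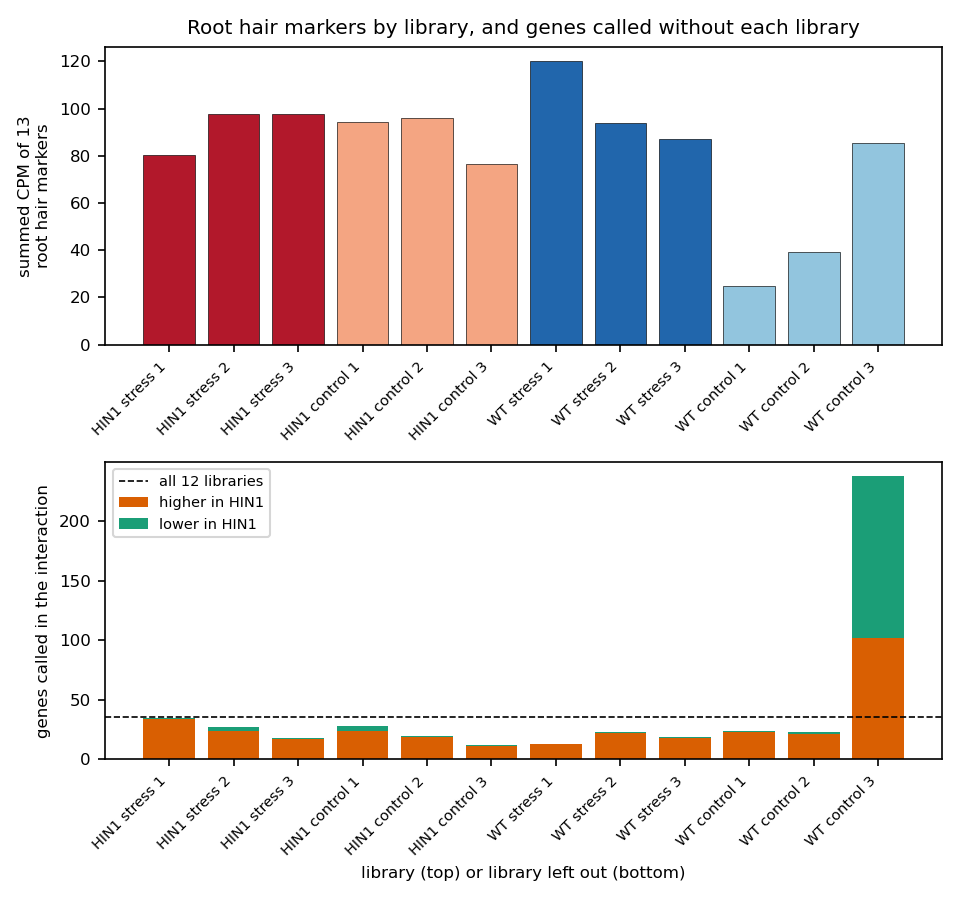
Top, summed CPM of 13 root hair markers in each library, where WT control libraries 1 and 2 stand at 24.9 and 39.2 CPM. Bottom, genes called in the interaction when the library named below the bar is left out, with the dashed line at 36 for all 12 libraries and the bar of WT control library 3 at 238.

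Gene groups were then read against the interaction by counts and medians, with no set test. Of 32 lists only 2 held a called gene, CYP71A12 in that of camalexin and indole glucosinolates and GSTF7 in that of tau and phi glutathione transferases, and the called kinase CRK12 was on none, since the list of its family does not include it. Over all genes tested, 54.0% had a positive interaction and 9.17% had an unadjusted p under 0.05.

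The camalexin and WRKY lists had positive medians. For camalexin and indole glucosinolates 13 of 14 members were positive, 6 of them at an unadjusted p under 0.05, with a median of 0.18, and 0.11 without HIN1 control library 3. For 20 WRKY transcription factors of defence and senescence the median was 0.37, with a median response of 0.25 in the HIN1 line and -0.36 in WT, 15 positive members and 6 at an unadjusted p under 0.05. WRKY6, a member of highest mean CPM, had 34.7, 40.4 and 40.7 CPM in HIN1 stress and 24.3, 26.2 and 24.5 CPM in HIN1 control, against 26.2, 23.2 and 25.3 CPM in WT stress and 18.6, 18.4 and 23.4 CPM in WT control (interaction 0.32 ± 0.14, adjusted p = 0.517). WRKY40, whose WT control values were 133, 4.39 and 24.7 CPM, had an interaction of 3.82 ± 1.43 (adjusted p = 0.496), a value that rests in part on WT control library 1. Without WT control libraries 1 and 2 the median of the WRKY list was 0.32, with 14 of 20 positive.

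Among 18 genes of salicylic acid synthesis and pathogen response the median was 0.10, and without 1 library it ran from -0.03 (WT control library 1) to 0.21 (HIN1 stress library 1). Without WT control libraries 1 and 2 it was -0.16, so the list had no stable direction. FMO1, which makes the systemic immune signal N-hydroxypipecolic acid and is named here after its values were seen, had 22.9, 23.3 and 28.5 CPM in HIN1 stress and 22.3, 12.3 and 15.5 CPM in HIN1 control, against 0.241, 0.275 and 0.774 CPM in WT stress and 1.67, 1.08 and 0.920 CPM in WT control. The genotypes were apart in both media, while the interaction of 2.12 ± 0.50 was not called (adjusted p = 0.217). For 23 tested cysteine-rich receptor-like kinases the median was 0.23, with 15 positive, and it was -0.06 without HIN1 stress library 3. It was 0.44 without WT stress library 3. The list leaves out CRK12, the called member of the family described above (2.28 ± 0.38, adjusted p = 0.0487), and of its listed members CRK11, also named after its values were seen, came nearest to the threshold at 1.13 ± 0.21 (adjusted p = 0.0765). The 30 tau and phi glutathione transferases had a median of -0.01, with 4 members higher and 4 lower at an unadjusted p under 0.05, and GSTF7 was its only called member.

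**Figure D5:**
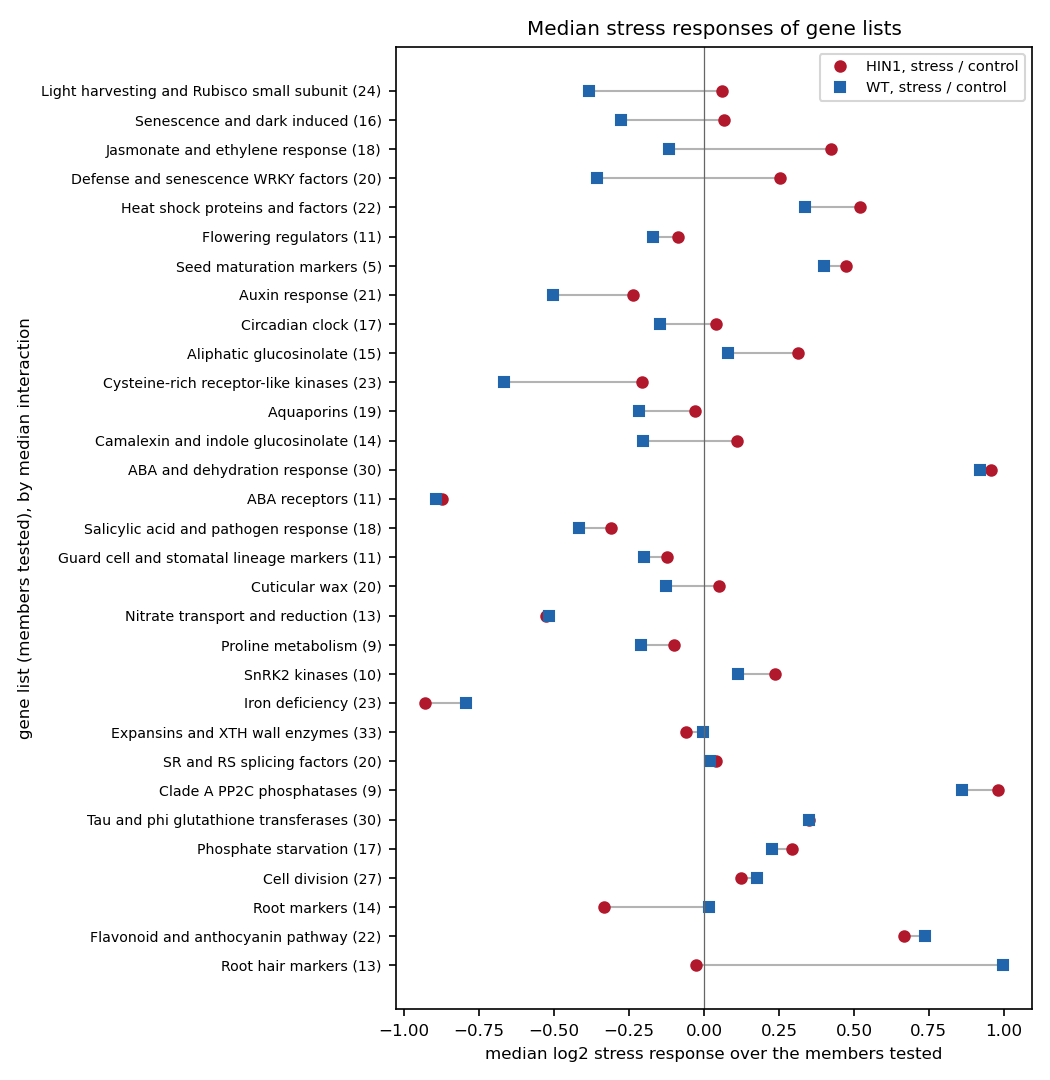
Median log2 stress response of each gene list in the HIN1 line (circles) and in WT (squares), with the number of members tested, ordered by median interaction from root hair markers at the bottom (-0.92) to light harvesting genes at the top (0.45); the pollen list, with 1 member tested, is not drawn. Lists of ABA response, clade A phosphatases and ABA receptors have nearly the same response in both genotypes.

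Responses of the core ABA and proline genes had similar medians in both genotypes. The 30 ABA and dehydration genes had a median response of 0.96 in the HIN1 line and 0.92 in WT, 25 rose in the HIN1 line and 21 in WT, and the median interaction was 0.14 with 3 members higher at an unadjusted p under 0.05. It was 0.04 without WT control library 1, and 0.06 without HIN1 control library 1 or WT stress library 3. ERD14, a dehydrin, had 371, 361 and 376 CPM in HIN1 stress and 275, 304 and 266 CPM in HIN1 control, against 410, 396 and 335 CPM in WT stress and 372, 286 and 316 CPM in WT control, with an interaction of 0.16 ± 0.14 (adjusted p = 0.753). P5CS1, the committing enzyme of proline synthesis, had 657, 530 and 869 CPM in HIN1 stress and 57.5, 58.7 and 81.7 CPM in HIN1 control, against 758, 799 and 667 CPM in WT stress and 84.2, 64.3 and 81.2 CPM in WT control. Its groups overlapped between genotypes in both media, and its interaction was 0.10 ± 0.26 (adjusted p = 0.926). The 9 proline metabolism genes had median responses of -0.10 in the HIN1 line and -0.21 in WT. Their median interaction was 0.07, and it ran from -0.04 to 0.13 without 1 library. The 9 clade A phosphatases, the family of HAI1, had medians of 0.98 in the HIN1 line and 0.86 in WT, 7 rose in each genotype and the median interaction was -0.01. For the 11 tested ABA receptors the medians were -0.87 in the HIN1 line and -0.89 in WT. For 20 SR and RS splicing factors they were 0.04 in the HIN1 line and 0.02 in WT, with a median interaction of 0.01.

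Heat shock genes leaned toward a higher response in the HIN1 line with no member called. In the list of 22 heat shock proteins and factors 18 interactions were positive and 7 had an unadjusted p under 0.05, with a median of 0.35. The list members of highest mean CPM, HSP70 and HSP90.1, had interactions of 0.24 ± 0.21 (adjusted p = 0.758) and 0.21 ± 0.24 (adjusted p = 0.813). HSP17.6B, named after its values were seen, had 17.7, 26.8 and 39.6 CPM in HIN1 stress and 5.15, 4.87 and 5.52 CPM in HIN1 control, against 7.45, 7.25 and 7.28 CPM in WT stress and 4.53, 4.24 and 6.20 CPM in WT control. HIN1 stress stood above all other libraries and varied most within itself, and the interaction was 1.88 ± 0.33 (adjusted p = 0.0590). HSP17.6C and HSP23.6, named on the same basis, had interactions of 2.8 ± 0.58 (adjusted p = 0.134) and 3.04 ± 0.80 (adjusted p = 0.294), with their highest value in HIN1 stress library 3 (26.2 and 17.1 CPM). Without that library the median of the list was 0.18.

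The medians of the photosynthetic and auxin lists were lower in WT than in the HIN1 line. The 24 light harvesting and Rubisco small subunit genes had a median response of 0.06 in the HIN1 line and -0.38 in WT, where 13 fell, and 16 of the 24 interactions were higher at an unadjusted p under 0.05. WT control libraries 1 and 2 held the highest of the 12 values for all 24 genes, 17 in library 1 and 7 in library 2, and without both the median interaction was 0.31 with 17 positive instead of 0.45 with 21. These genes have near-identical copies, so the level of a single copy is uncertain. The 21 auxin response genes had medians of -0.24 in the HIN1 line and -0.51 in WT, with 20 positive interactions and a median of 0.31. That median was 0.17 without WT control library 1, which held the highest of the 12 values for 10 of the 21, and 0.29 without WT control libraries 1 and 2. The 16 tested senescence and dark-induced genes had a median of 0.44, which was 0.28 without WT control library 1 and 0.19 without both.

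The flavonoid and anthocyanin list leaned the other way: its median interaction was -0.45, 2 of 22 members were positive and 3 were lower at an unadjusted p under 0.05. In the HIN1 line 12 members rose, and in WT 13 rose and 1 fell. The median responses were near each other, at 0.67 in the HIN1 line and 0.74 in WT. CHS, the chalcone synthase that opens it, had 199, 244 and 321 CPM in HIN1 stress and 244, 281 and 260 CPM in HIN1 control, against 355, 284 and 420 CPM in WT stress and 232, 269 and 311 CPM in WT control (interaction -0.42 ± 0.25, adjusted p = 0.619). The stress groups overlapped in CHS, and without WT control libraries 1 and 2 the list median was -0.25 with 6 positive, and without HIN1 stress library 3 it was -0.69.

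Root hair markers had the most negative median, -0.92, with 0 of 13 positive. PRP3, a root hair wall protein, had 11.8, 15.8 and 15.3 CPM in HIN1 stress and 15.6, 17.5 and 13.2 CPM in HIN1 control, against 18.8, 16.4 and 14.4 CPM in WT stress and 4.40, 7.53 and 15.3 CPM in WT control. Only WT control libraries 1 and 2 were low. The PRP3 interaction of -0.98 ± 0.46 was not called with all libraries (adjusted p = 0.551) and was called without WT control library 3 (0.0357). Without WT control libraries 1 and 2 the median of the list was -0.20, and without WT control library 3 it was -1.59. The 14 root markers followed, at -0.37 with all libraries and 0.04 without those 2. Without 1 library it was -0.66 (WT control library 3), -0.20 (WT control library 2), or -0.23 (HIN1 stress library 3 or WT stress library 2). Without the same libraries all 36 called genes kept their sign, but genes picked for a large interaction tend to keep it. WT control is then reduced to 1 library, whose spread is assumed to be that of the other groups.

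Several other lists had positive medians, most of which shifted with 1 library. The jasmonate and ethylene median was 0.40, and it was 0.03 without HIN1 stress library 3, 0.08 without WT control library 1, 0.27 without WT stress library 2, 0.61 without HIN1 stress library 1 and 0.64 without WT stress library 3. The flowering median was 0.33, and it was 0.11 without WT control library 2, 0.51 without WT control library 3 and 0.05 without WT control libraries 1 and 2. The circadian clock median was 0.27, and it was 0.17 without HIN1 control library 1 and 0.15 without WT control libraries 1 and 2. The aquaporin median was 0.21, and 0.12 without WT control library 3. The seed maturation median of 0.33 over 5 genes ran from -0.23 to 0.80 without 1 library. The lists of cuticular wax, guard cell and stomatal lineage, nitrate transport, proline metabolism, SnRK2 kinases, iron deficiency, expansins, phosphate starvation and cell division had medians of -0.06 to 0.10. Each of these small medians, and those of the ABA receptors, clade A phosphatases, splicing factors and glutathione transferases, moved by over 1.5 times or changed sign without at least 1 library. The iron deficiency median of 0.05 ran from -0.28 without WT control library 3 to 0.31 without HIN1 control library 1. It was 0.44 without WT control libraries 1 and 2. The aliphatic glucosinolate median was 0.26, and 0.20 to 0.37 without 1 library. In the aliphatic glucosinolate list 15 of 15 members were positive. MAM1, its chain-elongating synthase, had 427, 422 and 381 CPM in HIN1 stress and 248, 243 and 249 CPM in HIN1 control, against 370, 386 and 416 CPM in WT stress and 333, 299 and 320 CPM in WT control, with an interaction of 0.43 ± 0.09 (adjusted p = 0.166).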

How the data were processed

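Poly-A RNA of 12 whole-seedling libraries was sequenced with a stranded kit. Bowtie2 and Trimmomatic 0.35 are among the tools in the submitters' processing notes, beside DESeq2, CASAVA and bcl2fastq 1.8.4, with TAIR10 as the genome build. How reads were assigned to genes, and whether by strand, is not given in the sources used, so antisense and overlapping genes are uncertain. The authors deposited reads per gene, in the unit of estimated counts, since 4.09% to 4.56% of genes in a library held a fractional number, and the fraction of reads at several sites, which was at most 0.163% in called genes. The authors' own comparison tables were not used.

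Counts were rounded and fitted in R 4.3.3 with edgeR 4.0.16 (limma 3.58.1): filterByExpr with a minimum count of 10 kept 22924 of 33602 genes, TMM scaling, 1 coefficient per group, 8 residual degrees of freedom, and contrasts by glmQLFTest on either side, called where the Benjamini-Hochberg adjusted p was under 0.05. An error after ± beside a log2 value is the value divided by the square root of F. P-values measure the spread between experiments, taken as unpaired, with 1 line per genotype. Scripts were tested on simulated data. The members and gene lists were chosen with earlier results of these data known. Named genes are HIN1, called genes of at least 5 CPM in a group with the 12 highest and 12 lowest interactions, runs of called neighbours, and per list up to 3 called or 2 of highest mean; the other called genes, with 36 in all, were named after their values were seen. Names, coordinates and sequences are from RefSeq TAIR10.1. Alternatives changed scaling, tool (DESeq2 1.42.0, limma voom), filter, dispersion, threshold and libraries.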

Additional observations from a re-analysis of the deposited data

Results flagged for a closer look

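For each of the 36 called genes the stress responses of the HIN1 line and WT differed by the test of the difference itself, and the value is the log2 response in the HIN1 line less that in WT. The difference was 3.00 or more in AT5G22555 (4.36), CYP96A11 (3.51), AT1G26410 (3.5), DTX1 (3.1) and AT2G43140 (3.06), and the fitted value of 6.67 for GLR2.9 is no bound, since its WT stress libraries held no read. Between 2.00 and 2.99 lay AT1G48700 (2.99), AT1G26390 (2.83), AT5G65980 (2.8), AT3G45660 (2.61), WAKL4 (2.46), CYP71A12 (2.4), PROPEP2 (2.32), AT1G29020 (2.28), CRK12 (2.28), YSL7 (2.23), AT1G26420 (2.17), AT1G17960 (2.1), WOX12 (2.1) and HDK (2.00). Between 1.00 and 1.99 lay PXMT1 (1.92), DMT2 (1.89), AT4G19820 (1.74), AT1G13480 (1.7), AMY1 (1.56), AT5G38940 (1.54), AT3G16530 (1.36), AT1G61440 (1.29), GSTF7 (1.2), PHT3;2 (1.13) and AT1G52200 (1.00). The smallest were CYP71B23 (0.933), AT2G39210 (0.923), SULTR3;5 (0.856) and AT2G17710 (0.761). BAM5 (-2.05) had the opposite sign. Groups of 3 libraries are too small for a test of single outlying libraries.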

How the results depend on the processing

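All 36 called genes kept their sign in every alternative run, but they were picked for large differences and the runs share libraries. With 36 called as the base, 201 were called by DESeq2 (177 higher, 24 lower, all 36 among them), 68 at an adjusted p under 0.10, 48 with no filter on low counts, 45 with robust dispersion, 36 with DESeq2-type scaling in edgeR, 36 without genes of mostly shared reads and 30 with limma voom (22 of the 36). Leaving out 1 library gave 12 (HIN1 control library 3) to 238 (WT control library 3), leaving out a replicate number in all groups 7 to 8, and leaving out WT control libraries 1 and 2, added after seeing the data, 10. By direction, leaving out replicate number 1 gave 7 higher and 1 lower, number 2 gave 5 and 2, and number 3 gave 4 and 4. The cause of these shifts was not tested. Over single genes and single left-out libraries, 244 of 432 values stayed called and 188 lost the call in the same direction. Fitted with the replicate number as a block, 27 genes were called (25 higher, 2 lower, 21 of the 36), and CYP71A12 (adjusted p = 0.0605), WAKL4 (0.0605), PROPEP2 (0.0713) and GSTF7 (0.077) were among those not called. The chloroplast share set library 3 of every group apart from libraries 1 and 2, but the pairing was not taken as given. Correlations of deviations between same-numbered libraries ran from -0.11 to 0.195 (mean 0.027), with 5 of 18 over 0.1. Between different numbers they ran from -0.198 to 0.148 (mean -0.013), with 4 of 36 over 0.1. These values do not decide whether same-numbered libraries belong together, so the unpaired fit is a choice. With 3 libraries a group and 8 residual degrees of freedom, low genes limit the precision: CYP96A11, GLR2.9, AT1G48700, AT5G22555, AT1G26390 and HDK rest on fewer than 20 reads a library in WT stress.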
